A study of Homo sapiens with 24 samples.

Results

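An siRNA against OGT (siOGT) was compared with a scrambled siRNA in LNCaP, a human prostate cancer cell line that grew out of a lymph node metastasis and responds to androgen, over 12 and 24 hours of transfection together. The samples were chosen by their titles: 6 arrays of siOGT cells and 6 arrays of scrambled siRNA cells, each with 3 arrays at 12 hours and 3 at 24 hours, or 12 of the 24 arrays of the series. The other 12 arrays held cells given ST045849, an inhibitor of the OGT enzyme, and cells given its vehicle (6 each, at the same times), and the vehicle arrays serve here as a control without siRNA. All cells grew in the same serum-containing medium and were plated directly onto siRNA, compound or vehicle. The submitters described the 3 arrays of a group as biological replicates of this single cell line, and OGT protein and O-GlcNAc levels were not analysed here. Total RNA was read on Illumina bead arrays, and a level below is a background-corrected, quantile-normalised log2 intensity.

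O-GlcNAc is a single N-acetylglucosamine sugar placed on serine and threonine residues of nuclear, cytosolic and mitochondrial proteins. OGT is the only human enzyme known to add it to nuclear and cytosolic proteins, from the donor UDP-GlcNAc made by the hexosamine pathway, and OGA removes it. Cells are known to adjust the transcripts of both enzymes to the amount of the sugar on their proteins. In prostate cancer cells the modification has been studied for its bearing on the MYC protein, a transcription factor of ribosome biogenesis and growth.

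The 12 arrays had 13993 to 16246 of 47323 probes detected, which was lowest on the scrambled 24 hours replicate 1 array, and arrays of a group correlated at 0.987 to 0.993 across genes. That array stood apart on the second of the principal components of these 12 arrays (-19.1, against -4.48 to 8.40 on the other scrambled arrays and -4.40 to 9.26 on the siOGT arrays). Of 18 luminal prostate markers with a probe, 15 were detected on all 12 arrays, with summed levels of 33951 to 34877 on siOGT arrays and 31580 to 33543 on scrambled arrays. Of 21 markers of basal, stromal, neuroendocrine, immune and endothelial cells, 16 were detected on none of the 12 arrays, among them KRT5, COL1A1, CHGA and PTPRC. The other 5 (VIM, ACTA2, ENO2, CD68 and VWF) were detected on all 12, and the whole list summed to 1763 to 2250 on siOGT arrays and 1796 to 2207 on scrambled arrays. In bulk RNA, fewer cells with a transcript and less transcript per cell cannot be told apart.

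The promoters of the 4 genes that are followed array by array below are given here from RefSeq (GRCh38.p14), as the 300 bases around each gene's start, 5′ to 3′ on the gene's strand. OGT is the target of the siRNA and OGA the opposing enzyme, while MAP2K4 had the next largest lower and LMLN the largest higher mean difference among the protein-coding genes.
OGT (chrX:71532854-71533153, plus strand): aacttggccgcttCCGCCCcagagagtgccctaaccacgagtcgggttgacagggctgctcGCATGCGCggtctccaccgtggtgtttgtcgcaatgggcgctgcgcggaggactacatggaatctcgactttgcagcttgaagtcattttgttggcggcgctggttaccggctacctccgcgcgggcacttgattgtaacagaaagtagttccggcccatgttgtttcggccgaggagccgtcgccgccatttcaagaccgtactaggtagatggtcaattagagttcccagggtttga
OGA (chr10:101818395-101818694, minus strand): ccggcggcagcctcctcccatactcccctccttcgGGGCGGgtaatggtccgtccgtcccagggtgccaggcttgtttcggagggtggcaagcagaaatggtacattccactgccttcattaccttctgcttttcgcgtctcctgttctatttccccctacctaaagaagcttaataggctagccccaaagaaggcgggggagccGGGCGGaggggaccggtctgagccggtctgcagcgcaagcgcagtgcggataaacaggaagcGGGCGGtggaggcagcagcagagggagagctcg
MAP2K4 (chr17:12020627-12020926, plus strand): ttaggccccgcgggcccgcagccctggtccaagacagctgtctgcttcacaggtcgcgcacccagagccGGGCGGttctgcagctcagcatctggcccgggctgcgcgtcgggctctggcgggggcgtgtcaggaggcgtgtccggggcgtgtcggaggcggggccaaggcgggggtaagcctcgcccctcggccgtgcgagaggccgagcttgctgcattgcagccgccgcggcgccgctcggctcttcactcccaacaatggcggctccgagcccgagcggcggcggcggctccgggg
LMLN (chr3:197959967-197960266, plus strand): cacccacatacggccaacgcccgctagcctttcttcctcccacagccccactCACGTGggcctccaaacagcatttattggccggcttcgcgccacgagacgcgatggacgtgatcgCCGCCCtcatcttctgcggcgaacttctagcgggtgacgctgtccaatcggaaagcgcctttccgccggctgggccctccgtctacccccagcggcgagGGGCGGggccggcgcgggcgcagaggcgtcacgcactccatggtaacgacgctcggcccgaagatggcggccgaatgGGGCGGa
Capitals mark matches, on either strand, to the E-box CACGTG bound by MYC with its partner MAX, the GC box GGGCGG, and the motif GCATGCGC of the factor NRF1. The OGT window held 1 GC box and 1 NRF1 motif, the OGA window 3 GC boxes, the MAP2K4 window 1 GC box, and the LMLN window 3 GC boxes and 1 E-box. Of 35116 RefSeq promoters of this length, 7.26% held the E-box, 44.95% the GC box and 3.05% the NRF1 motif. Of the 12 lower genes named below, 10 matched a promoter, and 1 held an E-box, 6 a GC box and 2 an NRF1 motif. Of the 12 higher genes 9 matched, and 2, 5 and 1 held them in the same order. These matches describe letters in the window and nothing more.

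OGT fell in the siOGT arrays, and it was the only gene of 10345 that passed the test over both times (0.00967%). At 12 hours its level was 7.32, 7.55 and 6.71 on the siOGT arrays of replicates 1, 2 and 3, against 8.76, 8.95 and 8.99 on the scrambled arrays. At 24 hours it was 6.76, 7.82 and 6.60 with siOGT, against 8.96, 8.61 and 9.10 with scrambled siRNA. Every siOGT array lay below every scrambled array, and the vehicle arrays, at 8.78 to 9.17, overlapped the scrambled ones. The mean was 7.13 ± 0.51 with siOGT and 8.89 ± 0.18 with scrambled siRNA (SD, n = 6 each), a log2 difference of -1.77 ± 0.19 (SE; 95% interval -2.19 to -1.35; limma adjusted p = 0.00407), so that 29.4% of the scrambled level was left. A second OGT probe gave -1.59, and the exact two-sided permutation test, with arrays exchanged within a time, gave p = 0.005, the smallest its 400 arrangements can give. With the 6 time-and-replicate pairs as a block the call ended (-1.77, adjusted p = 0.0784).

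OGA was also lower on every siOGT array, but by very unequal amounts. At 12 hours it stood at 9.76, 9.72 and 8.35 on siOGT replicates 1, 2 and 3, against 10.09, 10.10 and 9.99 on the scrambled arrays. At 24 hours it stood at 8.44, 9.83 and 8.56 with siOGT, against 10.07, 10.05 and 10.11 with scrambled siRNA. The siOGT arrays split into 3 at 8.35 to 8.56 and 3 at 9.72 to 9.83, while the 6 scrambled arrays spanned little more than 0.1. The mean difference was -0.96 ± 0.26 (SE, n = 6 each; 95% interval -1.51 to -0.41) and did not pass the test over all genes (limma adjusted p = 0.221), although the exact two-sided permutation test of this single gene gave p = 0.005, again the smallest possible. The vehicle arrays had OGA at 9.95 to 10.30, and the siOGT difference from vehicle was -1.01 ± 0.26 (adjusted p = 0.118). In the ST045849 cells, which have a vehicle control of their own, OGA was 0.63 ± 0.08 and OGT 0.49 ± 0.08 higher than with vehicle.

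**Figure D1:**
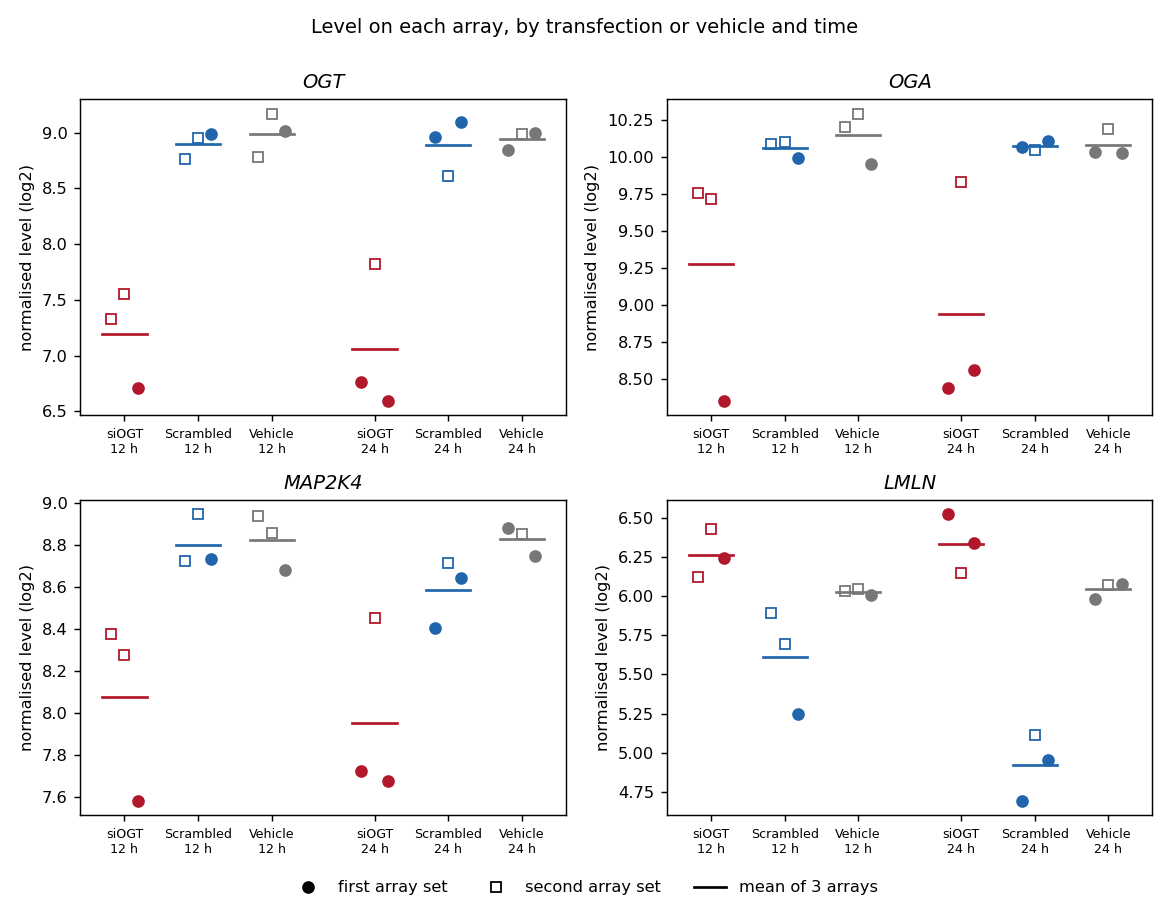
Normalised log2 levels of OGT, OGA, MAP2K4 and LMLN (vertical axes) on each of the siOGT, scrambled and vehicle arrays at 12 and 24 hours (horizontal axis), with the mean of 3 arrays as a line and filled circles for the first array set, open squares for the second. OGT, OGA and MAP2K4 were lowest on the 3 siOGT arrays of the first set, and LMLN was lower on every scrambled array than on any siOGT or vehicle array.

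The split of OGA followed a division of the arrays that the labelled times do not give. The 6 vehicle arrays fell into 3 and 3 at their widest gap on the first principal component of all 24 arrays, and the same times and replicate numbers define a first set (12 hours replicate 3, 24 hours replicates 1 and 3) and a second set in each treatment. On that component the siOGT arrays of the first set lay at -12.4 to -11.6 and those of the second at -5.31 to -3.86. OGA was 8.45 ± 0.10 on siOGT arrays and 10.06 ± 0.06 on scrambled arrays of the first set, and 9.77 ± 0.06 and 10.08 ± 0.03 in the second (SD, n = 3 each). Thus 32.8% of the scrambled level was left in the first set and 80.6% in the second, and this difference of -1.30 between the sets was the only one of 10345 to pass (0.00967%; limma adjusted p = 0.00103). OGT itself was 6.69 ± 0.08 with siOGT and 9.01 ± 0.07 with scrambled siRNA in the first set, and 7.57 ± 0.25 and 8.77 ± 0.17 in the second. That left 19.9% and 43.3% of the scrambled OGT level, a difference between sets of -1.12 on the log2 scale (adjusted p = 0.141). At an unadjusted p under 0.05 the siOGT effect differed between the sets for 483 of 10345 genes. The labels do not say what the sets stand for. Whether the labelled time holds for every array was not tested, and the values given for 12 or 24 hours rest on it. Each set holds arrays of both times, 2 of 24 hours in the first and 1 in the second for each treatment, so time and set are partly mixed.

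Beyond OGT the mean difference between siOGT and scrambled cells was small for most genes. The median absolute log2 difference was 0.09, beside a median SE of 0.09 and a median half-width of 0.20 for the 95% interval. The fitted difference reached 1.5-fold for 11 of 10345 genes. The 6 lower ones were OGT, OGA, MAP2K4, the small nucleolar RNA gene SNORA73B, GVQW3 and MIR1185-1, and the 5 higher ones were LMLN, TMOD2 (whose fold is not settled, since no scrambled array detected it), FBXO15, DCAF13 and the 28S ribosomal RNA gene RNA28SN5. Of these 11, RNA28SN5 had the largest SD in each group, with levels of 8.82, 9.51 and 11.85 (lowest, median, highest) on siOGT arrays and 8.20, 8.68 and 10.13 on scrambled arrays (0.84 ± 0.45, adjusted p = 0.471). At an unadjusted p under 0.05, 557 genes (5.38%) were higher and 707 (6.83%) lower. This split depends on the scaling, since median scaling gave 777 higher and 116 lower. The 6 siOGT and 6 scrambled arrays did not overlap for 35 higher genes (0.338%) and 61 lower genes (0.59%).

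**Figure D2:**
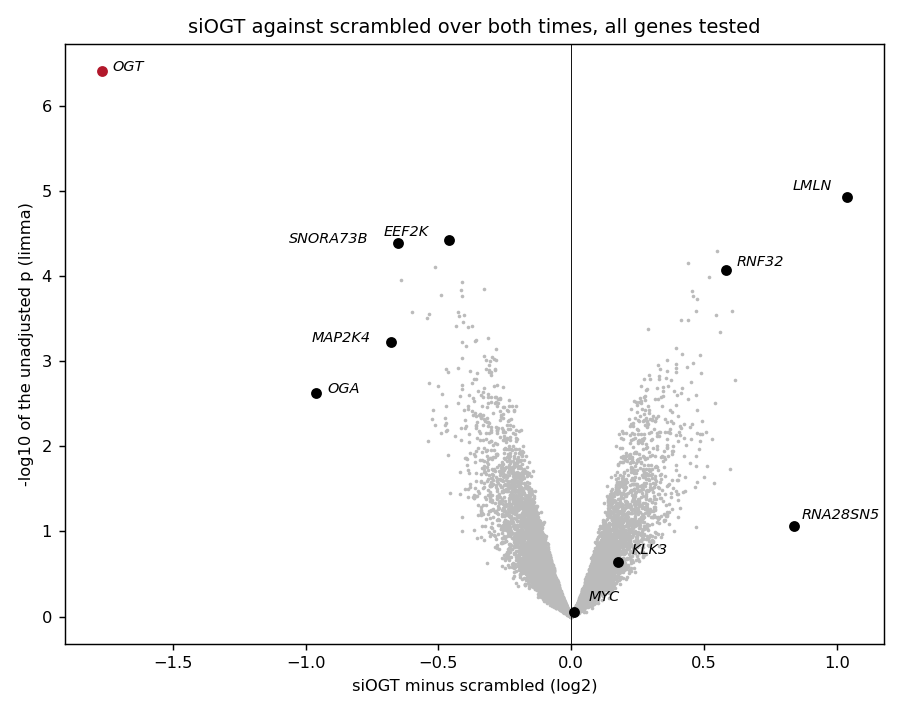
Log2 difference of siOGT minus scrambled (horizontal axis) against -log10 of the unadjusted limma p (vertical axis) for 10345 genes, 1 point a gene, with OGT in red as the gene that passed at an adjusted p under 0.05. OGT at -1.77 and LMLN at 1.04 stand apart at the top, OGA at -0.96 lies lower because of its spread, and MYC lies at 0.01.

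The genes named next are the 12 of smallest p in each direction. All 24 differed in the same direction at 12 and at 24 hours, and in 18 of them, 9 each way, the siOGT and scrambled arrays did not overlap. Over all genes 0.338% were higher and 0.59% lower without overlap. The 24 were picked by p on these same arrays, which favours both traits, so the counts describe the genes and do not test them. Apart from OGT none passed, with adjusted p of 0.0615 for LMLN and up to 0.116 for the rest and SE of 0.06 to 0.15.

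The lower genes that encode kinases, a phosphatase and a ubiquitin ligase are given first. EEF2K, the kinase that inhibits elongation factor eEF2 and slows translation, stood at 7.81, 7.99 and 8.21 (lowest, median, highest) on siOGT arrays and 8.38, 8.46 and 8.59 on scrambled arrays. The 2 groups did not overlap, and the difference was -0.46 ± 0.08 (SE, n = 6 each; limma adjusted p = 0.105). The vehicle arrays spanned 8.12 to 8.44, across the edges of both groups, and the siOGT difference from vehicle was -0.27 ± 0.08 (adjusted p = 0.191). PHLPP2, a phosphatase that removes an activating phosphate from AKT, stood at 5.44, 5.61 and 6.02 with siOGT and 5.88, 6.07 and 6.29 with scrambled siRNA. Here the highest siOGT array reached into the scrambled range, and the difference was -0.41 ± 0.08 (adjusted p = 0.105). SGK1, a serum- and steroid-induced kinase related to AKT, stood at 5.61, 5.65 and 5.81 with siOGT and 5.96, 6.06 and 6.33 with scrambled siRNA, without overlap (-0.41 ± 0.08; -0.55 and -0.28 from its other probes, detected on 1 and 2 of the siOGT arrays). The vehicle arrays spread over both ranges for SGK1, from 5.68 to 6.42. RNF220, an E3 ubiquitin ligase, stood at 8.25, 8.36 and 8.43 with siOGT and 8.60, 8.66 and 8.76 with scrambled siRNA, the smallest of the 24 differences, with the smallest SE (-0.33 ± 0.06).

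MAP2K4, the kinase that activates JNK and p38, lies outside the 12 by its p and is described for its size, a choice made after its values were seen. At 12 hours it stood at 8.38, 8.27 and 7.58 on siOGT replicates 1, 2 and 3, and at 24 hours at 7.73, 8.45 and 7.68. The scrambled arrays spanned 8.40 to 8.95 with a median of 8.72, and the highest siOGT array lay just above their lowest value. The difference was -0.68 ± 0.15 (limma adjusted p = 0.156), and a second probe gave -0.73. Like OGA, it was lower on siOGT arrays of the first set (-0.93) than of the second (-0.43), a difference of -0.50 that did not pass (adjusted p = 0.959). FBXO15, an F-box protein of ubiquitin ligases and another gene seen first in the values, was 1.06 higher in the first set and 0.18 in the second (adjusted p of the difference 0.582).

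Other lower genes encode surface, polarity and cell cycle proteins and small RNAs. GPC6, a glypican heparan sulfate proteoglycan of the cell surface, stood at 6.52, 6.68 and 6.87 with siOGT and 6.97, 7.12 and 7.20 with scrambled siRNA (-0.42 ± 0.08), although a second probe, detected on 2 of the 12 arrays, gave -0.01. Its vehicle arrays spanned 6.46 to 7.17, across both groups. CABLES1, an adaptor of cyclin-dependent kinases, stood at 6.75, 7.03 and 7.25 with siOGT and 7.28, 7.48 and 7.64 with scrambled siRNA (-0.43 ± 0.09). PARD6G, of the PAR polarity complex, and SPRN, a prion-like protein gene, differed by -0.49 ± 0.10 and -0.51 ± 0.09, with overlapping groups. SNORA73B, a small nucleolar RNA of ribosomal RNA processing, stood at 5.45, 5.55 and 5.85 with siOGT and 5.95, 6.26 and 6.62 with scrambled siRNA. These groups did not overlap (-0.65 ± 0.11), and a second probe gave -0.27. SNORA73A, a near copy with a probe of its own, differed by -0.21, and cross-hybridisation between them was not tested. The probe annotated to the MIR1185-1 locus stood at 5.86, 6.17 and 6.47 with siOGT and 6.55, 6.73 and 7.17 with scrambled siRNA (-0.60 ± 0.12), and it reports RNA of the locus, since mature miRNA was not measured. GVQW3 was detected on 1 of 6 siOGT arrays and all 6 scrambled arrays, at 4.66 to 5.34 and 5.56 to 5.99 (-0.64 ± 0.12).

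On the higher side LMLN, a metallopeptidase of the leishmanolysin family, had the largest difference, and its scrambled arrays lay below both the siOGT and the vehicle arrays. LMLN stood at 6.13, 6.29 and 6.53 (lowest, median, highest) on siOGT arrays and at 4.69, 5.18 and 5.89 on scrambled arrays, where 2 of 6 arrays detected it. The vehicle arrays lay at 5.98 to 6.08 with all 6 detected, close under the siOGT arrays and above every scrambled array. The siOGT difference was 1.04 ± 0.15 from scrambled (adjusted p = 0.0615) and 0.27 ± 0.08 from vehicle (adjusted p = 0.155), and scrambled differed from vehicle by -0.77 ± 0.14 (adjusted p = 0.135). ST045849 arrays differed from vehicle by -0.07 ± 0.06. LRRC1, a scaffold of the basolateral polarity machinery, showed the same order, at 8.14, 8.37 and 8.58 with siOGT, 7.86, 7.95 and 8.09 with scrambled siRNA and 8.16 to 8.31 with vehicle. Its difference was 0.41 ± 0.09 from scrambled (adjusted p = 0.116; 0.27 from a second probe) and 0.16 ± 0.08 from vehicle (adjusted p = 0.446).

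Several of the other higher genes were near the detection limit. RNF32, a RING finger gene, was detected on 5 of 6 siOGT arrays and on none of the scrambled or vehicle arrays, at 5.28, 5.57 and 6.04 with siOGT and 4.72, 5.04 and 5.22 with scrambled siRNA. Set against the lowest detected signal of each scrambled array RNF32 came out higher by at least 1.07-fold (adjusted p = 0.105). It met the filter on dim probes through the siOGT arrays and 2 ST045849 arrays, so its tests set detected values against values below detection. IFT172, an intraflagellar transport protein of cilia, was detected on all 6 siOGT arrays, none of the scrambled and 4 of the vehicle arrays. It came out at least 1.14-fold higher with siOGT than with scrambled siRNA (adjusted p = 0.107). For RNF32 and IFT172 the adjusted p is that of the measured difference, with scrambled values below detection, and does not test the bound. ODAD4, which docks dynein arms in motile cilia, TMOD2, a cap of actin filaments, and PLEKHA6 were not detected on any scrambled array, and no fold is given for them. They were detected on 3, 4 and 2 of the siOGT arrays. MYOM2, a sarcomere protein gene, and LMNTD2 were detected on all 6 siOGT arrays and on 1 and 2 scrambled arrays (0.55 ± 0.09 and 0.54 ± 0.11).

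Of the higher genes that every array detected, CCT6B, a testis-type subunit of the TRiC chaperonin, stood at 7.60, 7.85 and 8.03 with siOGT and 7.07, 7.28 and 7.54 with scrambled siRNA (0.52 ± 0.10). PLEKHA1, which binds the phosphoinositide made downstream of PI3K, stood at 8.91, 9.01 and 9.44 with siOGT and 8.56, 8.63 and 8.67 with scrambled siRNA. Its groups did not overlap (0.46 ± 0.09), and a second probe gave 0.21. The long noncoding RNA LINC00294 stood at 6.99, 7.04 and 7.31 with siOGT and 6.45, 6.63 and 6.86 with scrambled siRNA (0.44 ± 0.08). Its vehicle arrays, at 6.56 to 6.88, overlapped the scrambled ones and no siOGT array.

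**Figure D3:**
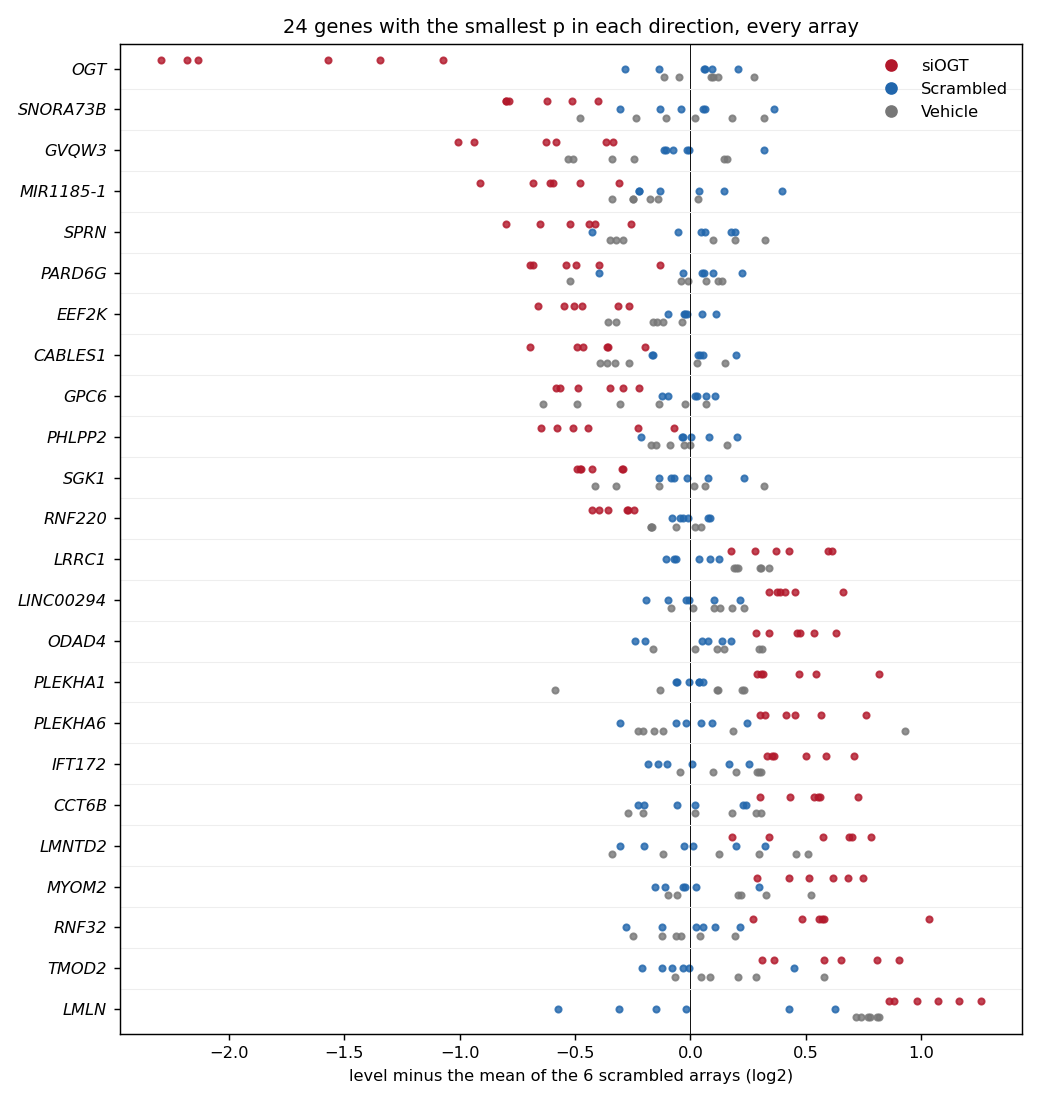
Level of each of the 24 named genes (rows) on each siOGT, scrambled and vehicle array (6 points a group) minus the mean of the 6 scrambled arrays, on the log2 scale. For LMLN and LRRC1 the vehicle points lie with or near the siOGT points, and for OGT, SNORA73B and RNF32 they lie with the scrambled points.

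When the spread was estimated from all 24 arrays the same mean differences gave 20 calls (0.193%), 5 higher and 15 lower. In 16 of them the siOGT and scrambled arrays did not overlap, beside 0.338% of all genes higher and 0.59% lower without overlap. Calls on these same differences favour that trait, so the count describes the genes and does not test them. Apart from OGT the called genes were LMLN, IFT172, LRRC1, RNF32 and LINC00294 on the higher side and EEF2K, SNORA73B, MIR1185-1, PHLPP2, RNF220 and MAP2K4 on the lower side, with 8 genes not described above. ZFR, a zinc finger RNA-binding protein, stood at 8.64, 8.96 and 9.09 with siOGT and 9.18, 9.29 and 9.47 with scrambled siRNA, with vehicle at 9.31 to 9.46. Its difference was -0.40 ± 0.07 in this fit (adjusted p = 0.0105). RNPS1, a splicing activator of the exon junction complex, stood at 10.08, 10.29 and 10.55 with siOGT and 10.57, 10.66 and 10.77 with scrambled siRNA (-0.36 ± 0.07, adjusted p = 0.0434), but a second probe gave -0.05. YJU2 and CCDC12, which belong to the spliceosome, differed by -0.41 ± 0.07 and -0.32 ± 0.07. METTL1, a methyltransferase of tRNA guanosine, differed by -0.28 ± 0.06, and SOX4, a developmental transcription factor, by -0.43 ± 0.09. RIPOR1 differed by -0.32 ± 0.06. MACROH2A1, a histone variant, differed by -0.35 ± 0.07, with -0.21 and 0.17 from its other probes. This fit assumes that siOGT arrays vary like the compound and vehicle arrays.

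Without an siRNA in the control, 47 genes (0.454%) passed against vehicle, 34 higher and 13 lower. This comparison holds the effect of transfection as well as that of the siRNA sequence, and the siOGT arrays are those used above. SNORA73B (-0.60 ± 0.11), MAP2K4 (-0.81 ± 0.15) and ZFR (-0.45 ± 0.08) were among the lower ones, and their scrambled means lay near vehicle (6.25 and 6.20 for SNORA73B, 8.69 and 8.83 for MAP2K4, 9.31 and 9.36 for ZFR, scrambled before vehicle). Other genes were graded across the 3 groups. STC2, a secreted glycoprotein of the integrated stress response, averaged 9.02 with siOGT, 8.74 with scrambled siRNA and 8.49 with vehicle (adjusted p = 0.0117 against vehicle, 0.227 against scrambled). DICER1, which cuts microRNA precursors and double-stranded RNA into small RNAs, averaged 8.56, 8.20 and 7.92 in the same order (adjusted p = 0.0400 against vehicle, 0.280 against scrambled). SLC35B4, a carrier of UDP-xylose and UDP-GlcNAc into the secretory pathway, averaged 6.89, 6.68 and 6.22, a difference of 0.67 ± 0.08 from vehicle (adjusted p = 0.00266) and 0.21 from scrambled (adjusted p = 0.404). For FOXN4, a forkhead transcription factor, the siOGT and scrambled means were close (5.73 and 5.77, with vehicle at 5.03).

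MYC transcript levels were close in the 2 groups. MYC stood at 11.24, 11.35 and 11.46 on siOGT arrays and 11.27, 11.33 and 11.46 on scrambled arrays, which overlap throughout. The difference was 0.01 ± 0.06 (95% interval -0.12 to 0.14; limma adjusted p = 0.970; exact permutation p = 0.825), and a second probe gave 0.10. KLK3, which encodes prostate-specific antigen, stood at 7.40, 7.74 and 8.17 with siOGT and 7.23, 7.58 and 7.89 with scrambled siRNA (0.17 ± 0.14, interval -0.12 to 0.47, adjusted p = 0.641; exact permutation p = 0.295). ST045849 arrays differed from vehicle by -0.88 ± 0.09 for KLK3.

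The 25 gene lists hold 715 distinct tested genes, of which OGT alone passed. Counts below are therefore of members at an unadjusted p under 0.05, to be read against 5.38% higher and 6.83% lower over all genes, and list medians against -0.01. Median scaling moved the median of all genes to 0.07 and turned all 17 negative list medians positive, so the sign of a small median rests on the scaling. With that scaling 777 of 10345 genes were higher and 116 lower at that level, and no list had more than 2 lower members. Of 13 O-GlcNAc and hexosamine genes OGT and OGA were lower, and none of the others met that level, including GFPT1, the entry enzyme of the hexosamine pathway (0.06 ± 0.10), and EOGT, the transferase of the secretory pathway (0.20 ± 0.14). Of 22 OGT partners and chromatin genes 3 were higher, the forkhead factor gene FOXK2 (0.35 ± 0.13), TRAK2 and ASXL1, and 2 lower, the acetyltransferase gene KAT8 (-0.38 ± 0.10) and SETD1A. Of 35 CLK kinase and splicing genes CLK4 was higher (0.47 ± 0.16, detected on 2 of 6 scrambled arrays). CLK3, SRPK1, SRPK2 and SRSF10 were lower, a count of 4 that became 0 without scrambled 24 hours replicate 1 and with median scaling. The share of all genes without that scrambled array is not given here. List counts without it, here and below, therefore do not separate a change of the list from a change over all genes. Of 11 genes of the RNA interference machinery DICER1 (0.36 ± 0.12; 0.77 from a second probe) and TNRC6A were higher and DGCR8 lower, which became 1 and 0 without scrambled 24 hours replicate 1. Of 25 interferon and RNA sensing genes none was higher, and IFI44, IRF1 and MX1 were lower (-0.25, -0.23 and -0.25). Against vehicle 3 of this list were higher and 2 lower, beside 7.45% and 5.69% of all genes.

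Of 45 MYC target genes 7 were lower (15.6%) and 2 higher (4.44%), with a median of -0.07. The lower members were PES1 (-0.32 ± 0.10), PPAN (-0.31 ± 0.10), NIP7, DDX21, NOLC1, FBL and RRS1, known as factors of ribosome assembly, as are many other members of the list. POLR1B, a subunit of RNA polymerase I, was higher (0.39 ± 0.10), with 0.03 from a second probe. LDHA was also higher (0.14 ± 0.06), with 0.06 and -0.02 from its other probes. The 7 became 5 without scrambled 24 hours replicate 1 and 0 with median scaling, where 116 of 10345 genes were lower. With that scaling the list median was 0.01, which is -0.06 relative to the median of all genes. Against vehicle 8 were lower, beside 5.69% of all genes, with a median of -0.02. Of 46 G1/S and replication genes 5 were lower: CDT1, which licenses replication origins (-0.42 ± 0.09), the chromatin assembly genes CHAF1A and CHAF1B, MCM7 and CCNE1. PRIM1 was the higher one (0.24 ± 0.09), and with median scaling 1 was lower. CDT1 stood at 8.32, 8.49 and 8.62 with siOGT and 8.73, 8.86 and 9.19 with scrambled siRNA, without overlap (adjusted p = 0.116). Of 50 G2/M genes PRC1, a spindle midzone protein, was lower (-0.37 ± 0.10) and none higher.

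The cholesterol list stood highest among the 25. Of its 21 tested members 5 were higher (23.8%) and none lower, 18 had a positive difference (85.7%, against 47.4% of all genes), and the median was 0.12. The 5 were MSMO1 (0.50 ± 0.19), MVD (0.43 ± 0.17), HMGCS1 (0.34 ± 0.13), IDI1 (0.34 ± 0.13), which are enzymes of the mevalonate and sterol steps, and NPC1, which exports cholesterol from lysosomes (0.24 ± 0.09). No member passed over all genes; HMGCS1, for one, had overlapping groups of 9.97, 10.30 and 10.53 with siOGT and 9.64, 9.91 and 10.20 with scrambled siRNA (adjusted p = 0.338). With median scaling 6 were higher, beside 777 of 10345 genes, and the list median was 0.19, or 0.12 above the median of all genes. Without scrambled 24 hours replicate 1 the count was 5 and the list median 0.15. Against vehicle, where 7.45% of all genes were higher, 11 members were higher with a median of 0.27, and HMGCS1 (0.60 ± 0.10, adjusted p = 0.0341) and MVD (0.61 ± 0.11, adjusted p = 0.0400) passed. NPC1 was not among these 11 (-0.03 ± 0.09 from vehicle). Scrambled against vehicle, which shares arrays with both, had 5 higher, 1 lower and a median of 0.18, beside 6% and 3.91% of all genes. Of 20 fatty acid synthesis genes ELOVL7 was higher (0.47 ± 0.19) and ELOVL1 lower (-0.20 ± 0.08), both counts 0 without scrambled 24 hours replicate 1, and against vehicle 9 were higher, FADS1 among them (0.52 ± 0.10, adjusted p = 0.0474), as were 9 in scrambled against vehicle.

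**Figure D4:**
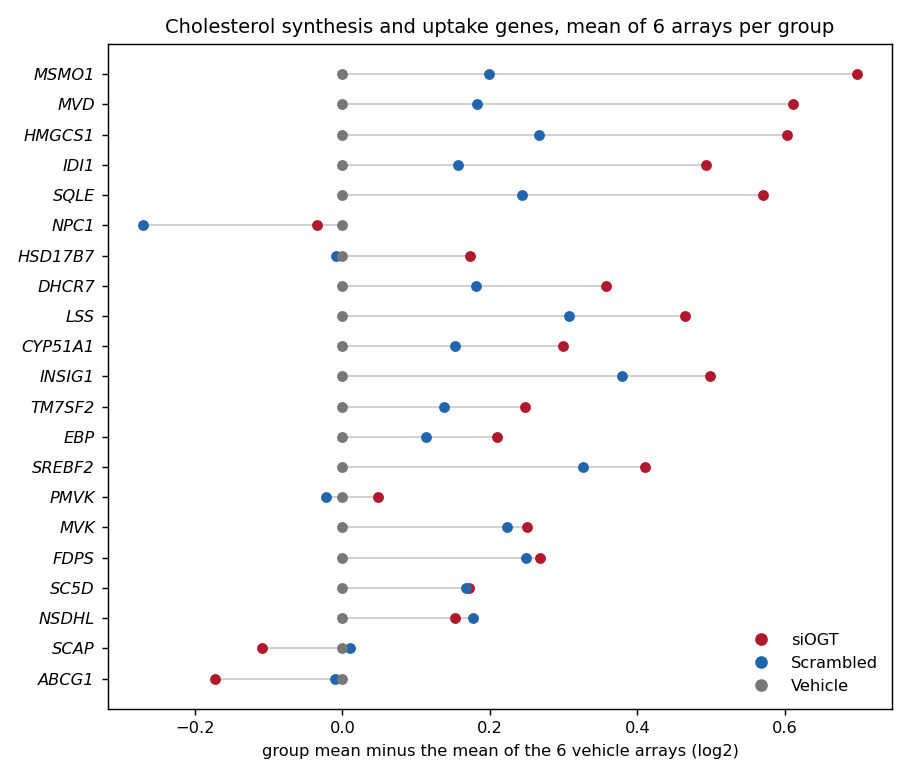
Mean level of each of 21 cholesterol synthesis and uptake genes (rows) in siOGT and scrambled cells (6 arrays each) minus the mean of the 6 vehicle arrays, on the log2 scale. For MSMO1, MVD, HMGCS1, IDI1 and SQLE the scrambled mean lies between vehicle and siOGT, and for NPC1 the siOGT mean lies near vehicle.

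Of 38 ATF4 and amino acid response genes 3 were higher (STC2, MTHFD2 and SLC1A4, the last not detected on any of the 12 arrays) and none lower, with a median of 0.03. Of 29 genes of ER folding and the unfolded protein response 4 were higher (13.8%), among them the chaperone gene HSPA5 (0.23 ± 0.08), and PDIA4 lower. Of 19 cytosolic heat shock genes CHORDC1 was higher (0.26 ± 0.11) and BAG3 lower (-0.23 ± 0.06). Of 22 NRF2 genes GSR, glutathione reductase, was higher (0.25 ± 0.09). Of 22 p53 targets the proapoptotic gene BBC3 (-0.44 ± 0.14) and TP53I3 were lower, and of 20 apoptosis regulators CASP6 and CYCS were higher (10%; 0.25 ± 0.07 and 0.23 ± 0.07). Of 38 androgen response genes SGK1, TSC22D1 and ADAMTS1 were lower and ELOVL7 higher, with a median of 0.00. The other TSC22D1 probes gave -0.14 and 0.14. Without scrambled 24 hours replicate 1 the counts of this list were 2 and 0. Of 17 luminal identity genes STEAP2 was higher (0.27 ± 0.08). Its other probes gave 0.08, detected on all 12 arrays, and -0.08, detected on none of them. Of the 5 tested nonluminal markers VWF was lower (-0.31 ± 0.13).

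Among metabolic and housekeeping lists, 3 of 20 glucose-responsive and hypoxia genes were higher (STC2, P4HA1 and KDM3A), with a median of 0.07. Against vehicle 1 was higher, beside 7.45% of all genes, with a list median of 0.003, and in scrambled against vehicle the list median was -0.10. Of 27 glycolysis and pentose phosphate genes LDHA was higher and ENO1 lower (-0.15 ± 0.07), and neither count remained without scrambled 24 hours replicate 1 (0 and 0). Of 69 respiratory chain genes NDUFB9 was higher (0.28 ± 0.10), and of 68 cytosolic ribosomal protein genes RPL23 and RPS28 were higher and RPL36A lower, which also became 1 and 0 without that scrambled array. Of 31 proteasome genes 3 were lower, PSMB6 without overlap of the groups (-0.21 ± 0.06), PSME3 and PSMD12, and 1 was lower without scrambled 24 hours replicate 1. Of 25 lysosome and autophagy genes ATG5 (0.37 ± 0.12) and NPC1 were higher and ULK1, the kinase that starts autophagy (-0.31 ± 0.09), ATG7 and CTSL lower.

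**Figure D5:**
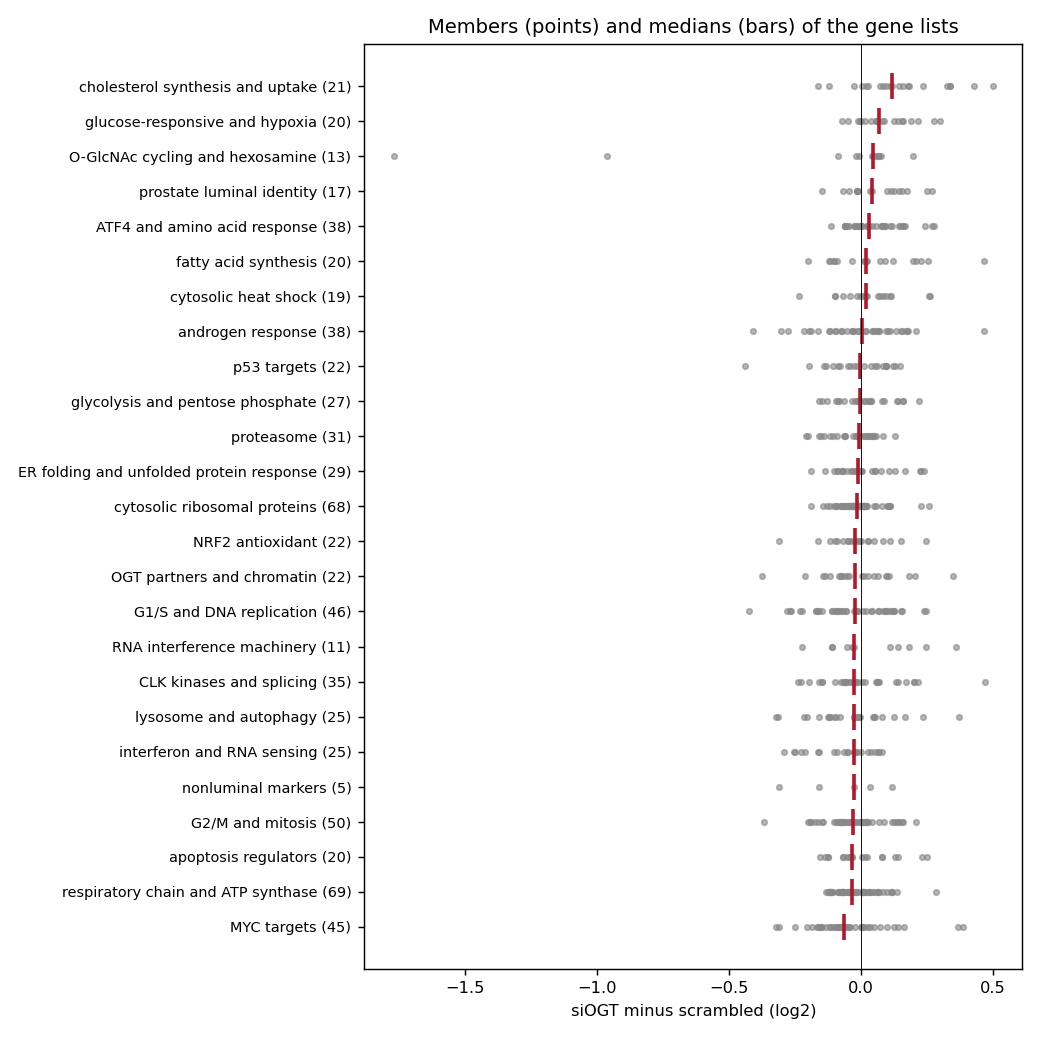
Log2 differences of siOGT minus scrambled for the tested members (points) of 25 gene lists (rows, with the number tested), with the list median as a red bar. OGT at -1.77 and OGA at -0.96 are the far left points, and medians lie between -0.07 and 0.12. With median scaling the negative medians became positive and the median of all genes moved to 0.07.

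The siOGT effect was not shown to differ between the times. No gene passed the test of the 24 hour effect minus the 12 hour effect (limma, smallest adjusted p = 0.273), and 368 genes (3.56%) had an unadjusted p under 0.05. OGT differed by -1.83 at 24 hours and -1.70 at 12 hours. LMLN differed by 1.42 at 24 hours and 0.66 at 12 hours, and GVQW3 by -0.94 and -0.35. These were the only 2 genes that passed when 24 hours was tested by itself (0.0193%, limma adjusted p = 0.0181 and 0.0491). None passed at 12 hours, so OGT passed at neither time by itself. No scrambled array of 24 hours detected LMLN, and no siOGT array of 24 hours detected GVQW3. An unadjusted p under 0.05 was met by 415 of 10345 genes at 12 hours and 1175 of 10345 at 24 hours. The 24 hour count includes scrambled 24 hours replicate 1, the array that stood apart. The differences were larger at 24 hours than at 12 hours for 20 of the 24 named genes and 61.0% of all genes, and larger in the first array set than in the second for 22 of the 24 and 61.1% of all genes. The named genes were picked for their mean effect, so these counts describe them only.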

How the data were processed

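LNCaP RNA was labelled with biotin and hybridised, per the labels' protocols, and GenomeStudio 2011.1 was used, per the submitters' processing notes. The deposited table gave a raw intensity and a detection p-value per probe and array, per the file headers; the authors' processed intensity table was an alternative, and no source used here gives its method, the slides or the siRNA sequences.

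With limma 3.58.1 in R 4.3.3 (with the data.table package, version 1.17.8), neqc corrected the background from the detection p-values (offset 16, which draws dim genes toward 0) and quantile-normalised all 24 arrays. A probe was called detected on an array at a detection p under 0.01, and the 17633 probes detected on 3 or more of the 24 arrays were kept. The platform annotation named 30113 probes with 1 gene symbol, 8 with several and 17202 with none. RefSeq identifiers updated 0 symbols and left 39 unmatched, 4010 kept probes had no single name, and 2633 genes had several probes. The probe of highest mean stood for a gene.

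The main fit was limma over the 12 siOGT and scrambled arrays, with time as a block and Benjamini-Hochberg adjustment over 10345 genes, called at an adjusted p under 0.05. For a gene that no scrambled array detected, the fold is a bound against each array's lowest detected signal, or the gene's own value where that was higher. By rule the text names called genes, filled to 12 in each direction with those of smallest p, always OGT, OGA, MYC and KLK3, and of each list the 2 members of smallest p. Genes past 1.5-fold, genes called over 24 arrays or against vehicle, and other list members under an unadjusted p of 0.05 were named after their values were seen. Members, lists and rules were chosen with earlier results of these data known. No 2 arrays held identical values (0 pairs). The fit was tested on simulated data, and the alternatives are in the closing section. Whether the replicates were separate cultures is stated only as biological replicates, and p-values measure the spread between these samples. Array number limits precision.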

Additional observations from a re-analysis of the deposited data

Results flagged for a closer look

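Of 170 groups of 6 arrays examined among the named genes, 7 held an array whose gap to its nearest neighbour exceeded Dixon's 95% critical share of the group's range, and chance flags about 1 in 20 such groups. Among siOGT arrays these were 12 hours replicate 1 for LINC00294 (0.649) and 24 hours replicate 3 for IRF1 (0.712). Among scrambled arrays they were 24 hours replicate 1 for GVQW3 (0.751) and for PPAN (0.777), 12 hours replicate 1 for TMOD2 (0.694), 24 hours replicate 3 for STC2 (0.655) and 12 hours replicate 2 for IFI44 (0.687).

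The effect of siOGT on OGA differed between the array sets by -1.30 on the log2 scale (limma adjusted p = 0.00103), with every siOGT array of the first set below every siOGT array of the second. The scrambled arrays of the sets differed by little, at 10.06 and 10.08 on average. The part of the knockdown depth, which also differed between the sets, was not tested.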

How the results depend on the processing

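The count of 1 called gene stayed at 1 with the other detection filters, the mean of a gene's probes, the array set as a block, a fold threshold of 1.2 and, added after the data were seen, the set in place of time. It was 11 without background correction and with the authors' values, 2 with median scaling (LMLN beside OGT), with array quality weights (LMLN again) and with every named probe (both OGT probes), 20 over 24 arrays and 47 with vehicle as the control. Leaving out 1 array gave 1 to 3, with 3 without siOGT 12 hours replicate 1 (H3C6 and LMLN were added) and 3 without scrambled 12 hours replicate 1 (LMLN and MYOM2). The OGT difference ranged from -1.93 to -1.27 over all settings. Same-numbered siOGT and scrambled arrays correlated in their deviations at 0.05 to 0.27, with 3 of 6 pairs over 0.1. Of the 6 siOGT arrays 5 correlated best with their own number. Whether the numbers pair the samples is not settled by these values, and the main fit leaves the numbers out. The replicate number as a block gave 3 calls (SNORA73B and SPRN beside OGT), the 6 pairs as a block 0 (OGT -1.77, adjusted p = 0.0784), and the time-and-replicate sets as a block over 24 arrays 33, OGA among them (adjusted p = 0.0314). Of the list members 1 was called, against 2 without background correction and with the authors' values, 0 with the pairs and 8 with vehicle as the control. No gene passed the test between the times in any setting. Dim genes limit the rest, since the offset shrinks their differences.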
